A study of Mus musculus with 6 samples.

Results

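The respiratory chain genes examined here encode the protein complexes of mitochondrial oxidative phosphorylation, in neutrophils from mouse bone marrow. They were chosen by symbol: the Nduf genes of complex I, the Sdh genes of complex II, the Uqcr genes of complex III, the genes Cox4 to Cox8 of complex IV, the Atp5 genes of complex V, and the 13 protein genes of the mitochondrial genome. Of 120 matching rows, 8 rows with a pseudogene symbol (ending in ps and sometimes a digit) and 7 rows with fewer than 40 estimated counts over all libraries were left out, which gave 105 genes of 47561 rows. The rule does not take Cyc1 of complex III. Of the 105 genes, 92 are nuclear and 13 are mitochondrially encoded. The genes nearest the threshold were Cox6a2 with 42 and Ndufaf4 with 45 estimated counts inside it, and Cox6c2 with 23 outside it.

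The CUMS mice went through chronic unpredictable mild stress (CUMS), in which changing mild stressors are applied for 4 weeks, and the other mice were Control animals. All were male and wild type, and neutrophils were sorted from their bone marrow by flow cytometry. Each group held 3 libraries, made from 1 µg of total RNA and read as pairs of 150 bp. The sources used here give neither the sorting markers nor the age and strain of the mice. They do not state that the libraries stem from separate animals either, so the p-values measure the spread between these samples, which may be technical.

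Electrons from NADH enter the chain at complex I and electrons from succinate at complex II. They pass through ubiquinone to complex III, through cytochrome c to complex IV, and there to oxygen. Complexes I, III and IV pump protons across the inner membrane, and complex V, the ATP synthase, makes ATP from their return. Complexes I, III, IV and V combine subunits made from both genomes, whereas complex II is entirely nuclear. Mature neutrophils hold few mitochondria and draw most of their ATP from glycolysis, while their precursors in the marrow depend more on mitochondria.

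No respiratory chain gene passed the test between CUMS and Control, although the mean of most was slightly lower in CUMS, a difference seen in CUMS replicates 2 and 3 and not in CUMS replicate 1. Estimated counts were scaled between libraries by TMM, given as counts per 1000000 (CPM), and tested with edgeR's quasi-likelihood test and Benjamini-Hochberg adjustment over all genes. Of the 105 genes, 102 passed the filter on low counts. None of the 102 had an adjusted p below 0.05, whereas 4.5% of all 15778 genes tested did (2.14% lower and 2.36% higher in CUMS). At an unadjusted p below 0.05 there were 13 genes, or 12.7%, all lower in CUMS, against 8.46% of all genes tested that were lower at that threshold. The log2 fold change of CUMS over Control was negative for 92 of the 102 genes (90.2%), compared with 51.6% of all genes tested. Its median was -0.14 over the nuclear subunits, equal to -9.2%, and -0.15 over the mitochondrially encoded genes, beside -0.01 over all genes tested. In RNA from sorted populations, fewer cells of a kind and less RNA per cell cannot be told apart.

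The CUMS libraries were not alike for these genes. In CUMS replicate 1 the nuclear subunits lay at a median of 0.10 above their mean of the 6 libraries on the log2 scale. In CUMS replicates 2 and 3 they lay at -0.17 and -0.14, and in Control replicates 1 to 3 at 0.14, 0.06 and 0.02. CUMS replicate 1 thus lay inside the range of the Control libraries, and the lower values came from the other 2 CUMS libraries. Without CUMS replicate 1, edgeR's quasi-likelihood test called 7 of the genes at an adjusted p below 0.05, all lower in CUMS, where 2.07% of all 16603 genes then tested were called lower. These were COX1, COX2, COX3, Ndufa3, Ndufb7, Atp5h and Atp5pb. The medians were then -0.23 over the nuclear subunits and -0.21 over the mitochondrially encoded genes, and 98 of 102 genes had a lower mean in CUMS. Leaving out any other single library gave no call, and the median over the nuclear subunits was -0.08 without CUMS replicate 2.

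**Figure D1:**
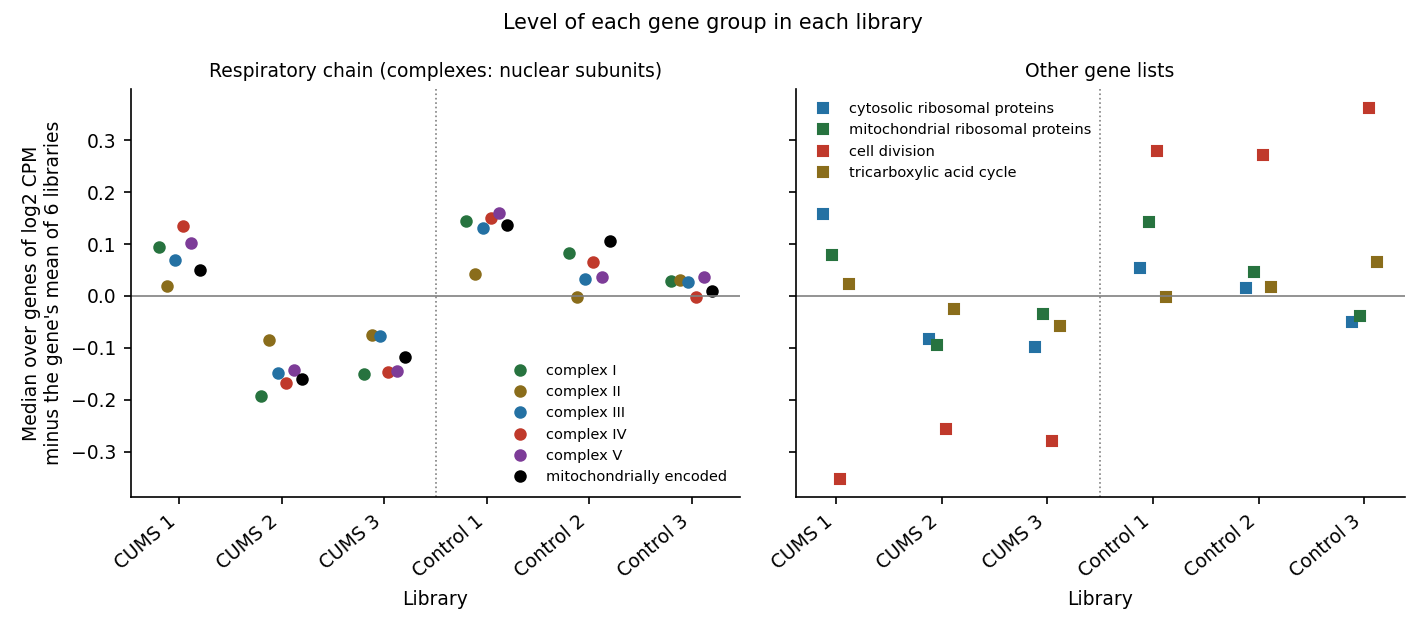
Median over genes of log2 CPM minus each gene's mean of the 6 libraries, by library, with 1 point per gene group: the complexes (nuclear subunits) and the mitochondrially encoded genes on the left, and 4 other gene lists on the right. CUMS replicates 2 and 3 lie lowest for every respiratory chain group, CUMS replicate 1 lies among the Control libraries or near them, and the cell division list is low in all 3 CUMS libraries.

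The promoters of 3 genes are shown, because these are among the nuclear genes with the smallest p-values and their windows hold the short motifs searched. The windows come from RefSeq on GRCm38.p6, run 5′ to 3′ on the gene's strand, and cover 250 bases before to 50 after the start. Capitals mark matches to the motif of NRF1 (GCGCA, any base, then GCGC) or of GABPA (CCGGAAG) on either strand, both known activators of respiratory chain genes. Atp5h encodes subunit d in the stalk of the ATP synthase, at chr11:115419870-115420169 on the minus strand, with the NRF1 match beginning 141 bases and the GABPA match 38 bases before the start. Ndufb7 and Ndufa6 encode accessory subunits of complex I. The Ndufb7 window is chr8:83566508-83566807 on the plus strand, with a GABPA match 20 bases before the start, and that of Ndufa6 is chr15:82354242-82354541 on the minus strand, with an NRF1 match just after the start.
Atp5h promoter: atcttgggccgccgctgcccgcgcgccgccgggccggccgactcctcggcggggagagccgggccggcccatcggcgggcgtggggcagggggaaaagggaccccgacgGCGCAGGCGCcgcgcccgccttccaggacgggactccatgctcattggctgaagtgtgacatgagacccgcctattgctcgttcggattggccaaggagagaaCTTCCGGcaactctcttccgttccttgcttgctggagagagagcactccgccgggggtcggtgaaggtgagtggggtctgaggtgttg
Ndufb7 promoter: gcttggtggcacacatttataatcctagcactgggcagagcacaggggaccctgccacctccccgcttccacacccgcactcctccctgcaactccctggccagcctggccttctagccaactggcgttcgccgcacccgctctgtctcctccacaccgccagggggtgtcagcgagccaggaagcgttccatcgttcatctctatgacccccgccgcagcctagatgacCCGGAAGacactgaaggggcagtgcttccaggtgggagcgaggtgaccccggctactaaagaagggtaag
Ndufa6 promoter: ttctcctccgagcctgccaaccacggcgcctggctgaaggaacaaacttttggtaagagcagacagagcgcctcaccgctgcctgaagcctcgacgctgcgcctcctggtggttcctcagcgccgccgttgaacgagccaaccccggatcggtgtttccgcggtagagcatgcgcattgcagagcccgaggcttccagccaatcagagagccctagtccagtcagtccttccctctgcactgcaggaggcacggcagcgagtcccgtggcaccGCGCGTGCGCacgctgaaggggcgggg

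RefSeq windows were matched for 76 of the 92 nuclear genes, 81 windows in all. The NRF1 motif was found in 20 of the 81 windows (24.7%), compared with 4.6% of all 32851 windows of that length. The GABPA motif was found in 19 (23.5%, against 8.86% of all windows). The motif of YY1 (AAGATGGCG), a factor that often binds at the start of such genes, was found in 8 (9.88%, against 1.4%). Both strands were searched, and 1 stretch can match more than 1 motif, since the GABPA motif ends in the letters AAG with which the YY1 motif begins. In all, 39 genes held at least 1 of them. Holding a motif went with little difference in the stress comparison: the median log2 fold change was -0.14 for genes with and -0.13 for genes without the NRF1 motif, -0.12 with and -0.14 without the GABPA motif, and -0.16 with and -0.13 without the YY1 motif. A match is a description of the letters and does not show that the factor binds there.

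The genes of the factors themselves were tested beside them. Nrf1 averaged 41.3 CPM in CUMS and 43.2 CPM in Control, Gabpa 44.1 CPM in CUMS and 42.7 CPM in Control, and Yy1 126 CPM in CUMS and 119 CPM in Control. None of the 8 genes tested from the list of biogenesis regulators passed edgeR's test, and 1 had an unadjusted p below 0.05, against 16.9% of all genes tested in either direction. This was Hcfc1, which encodes a cofactor of GABP and which DESeq2 also called, with 78.0 CPM in CUMS and 91.7 CPM in Control (edgeR adjusted p = 0.065). Without Control replicate 1, edgeR's test called 1 gene of the list.

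Complex I, the NADH dehydrogenase, is the largest of the complexes. Of its 40 nuclear subunit genes, 37 had a lower mean in CUMS and 3 a higher one, with a median log2 fold change of -0.15. The median was -0.24 without CUMS replicate 1 and -0.08 without CUMS replicate 2. Among the 40 genes, 2 (Ndufb4c and Ndufs6b) are annotated as processed pseudogenes, and without these 35 of 38 genes had a lower mean in CUMS, at a median of -0.15. The 38 genes still hold Ndufb1, matched to an entry annotated as a noncoding RNA, and Ndufb4b, for which no annotation was found. The 40 genes' CPM values summed to 600, 513 and 519 in CUMS replicates 1 to 3, against 610, 589 and 575 in Control replicates 1 to 3. The sum of CUMS replicate 1 thus lay within the Control range and the other CUMS sums below it.

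The lowest values belonged to accessory subunits. Those described here were picked for a small p-value, a call without CUMS replicate 1 or an extreme value. Other accessory subunits lay close to 0, such as Ndufb2 at a log2 fold change of 0.02 and Ndufs6 at 0.01. Ndufa6 had 12, 8.81 and 8.90 CPM in the CUMS libraries, against 15.6, 12.5 and 10.9 CPM in the Control libraries. The groups overlapped through CUMS replicate 1, and the log2 fold change was -0.39 with an SE of 0.16 and an adjusted p of 0.22 in edgeR's test. Ndufb6 had 7.58, 7.64 and 6.02 CPM in CUMS and 8.96, 9.79 and 8.41 CPM in Control, so all 3 CUMS values lay below all Control values (log2 fold change -0.36 ± 0.13 SE, edgeR adjusted p = 0.18). Ndufb7 had 35.4, 29.7 and 29.5 CPM in CUMS and 36.8, 35.6 and 35.4 CPM in Control, with CUMS replicate 1 just under the lowest Control library. Its log2 fold change was -0.19 ± 0.08 SE (edgeR adjusted p = 0.23), and -0.28 without CUMS replicate 1 (edgeR adjusted p = 0.042). With any other library left out Ndufb7 was not called (edgeR adjusted p up to 0.56). Ndufa3, another accessory subunit, had 22.5, 16.5 and 17.1 CPM in CUMS and 22.8, 21.2 and 21.2 CPM in Control. Its CUMS replicate 1 lay within the Control range, and it had a log2 fold change of -0.22 with all libraries (edgeR adjusted p = 0.36) and of -0.37 without CUMS replicate 1 (edgeR adjusted p = 0.036). With any other library left out Ndufa3 was not called (edgeR adjusted p up to 0.72). The lowest log2 fold change of the complex belonged to Ndufa5, -0.59 ± 0.29 SE, a gene of low level. It had 1.44, 1.22 and 0.795 CPM in CUMS and 2.04, 1.47 and 1.70 CPM in Control, free of overlap.

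The core subunits described here belong to the electron-carrying arm with its flavin and iron-sulphur clusters. They were chosen by role, and were mostly closer to equality than the accessory subunits picked above. Ndufs1, the largest of them, averaged 39.1 ± 0.49 CPM in CUMS and 39.6 ± 0.54 CPM in Control (SD, n = 3 each). The difference was -0.02 on the log2 scale, with an SE of 0.06. Ndufs7 had a log2 fold change of -0.02 and Ndufv1, which binds NADH, of -0.09. Ndufv2 stood at -0.15 and Ndufs3 at -0.34 ± 0.18 SE. Ndufs8 had the highest value of the nuclear subunits of complex I, 0.10 ± 0.11 SE, with 9.7 CPM in CUMS and 9.04 CPM in Control. None of these 6 genes had groups that were free of overlap.

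The assembly factors of complex I (Ndufaf genes) help build the complex and are not part of it. They were the group with a median above 0: 2 of the 6 tested had a lower mean in CUMS and 4 a higher one, with a median log2 fold change of 0.07. These genes were weakly measured. Their median level was 1.38 CPM per kilobase, compared with 13.2 for the subunits, and Ndufaf4 and Ndufaf6 did not pass the filter. The highest log2 fold change, 0.31 for Ndufaf2, had an SE of 1.23, and the lowest, -0.23 for Ndufaf7, had an SE of 0.12. The median was -0.09 when CUMS replicate 3 was left out, and -0.02 when CUMS replicate 1 or Control replicate 2 was, and it reached 0.16 without CUMS replicate 2.

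Complex II, the succinate dehydrogenase, also works in the tricarboxylic acid cycle and has no mitochondrially encoded subunit. It stood closest to equality of the complexes, with a median log2 fold change of -0.03 over its 4 genes. That median was -0.10 without CUMS replicate 1, and -0.02 without CUMS replicate 2 or Control replicate 1. Sdha, which carries the flavin, had 82.5, 78.3 and 77.7 CPM in CUMS and 81.3, 78.8 and 83.2 CPM in Control. Sdhb, the iron-sulphur subunit, averaged 28.8 ± 4.46 CPM in CUMS and 28.9 ± 1.31 CPM in Control (SD, n = 3 each). Sdhd, a membrane anchor, averaged 45.7 ± 1.2 CPM in CUMS and 47 ± 1.6 CPM in Control (SD, n = 3 each). For all 3 genes the groups overlapped. Sdhc, the other membrane anchor, had 17.9, 16.4 and 17.2 CPM in CUMS and 18.1, 22.1 and 19.6 CPM in Control, with no overlap. Its log2 fold change was -0.22 ± 0.09 SE (edgeR adjusted p = 0.25).

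Complex III passes electrons from ubiquinol to cytochrome c. All 8 of its nuclear genes chosen by symbol had a lower mean in CUMS, with a median log2 fold change of -0.10. The core genes Uqcrc1, Uqcrc2 and Uqcrfs1, the last of which carries the Rieske iron-sulphur cluster, lay at -0.06, -0.04 and -0.05. The small hinge subunit Uqcrh lay lowest, at -0.23 ± 0.11 SE, with 36.2, 29.0 and 35.6 CPM in CUMS and 45.0, 39.0 and 34.3 CPM in Control. Uqcrc2 had the highest value, and the groups overlapped for every one of the 8 genes. The median was -0.21 without CUMS replicate 1.

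Complex IV, cytochrome c oxidase, is counted here with Ndufa4, whose product is known as a subunit of this complex. All 13 nuclear subunit genes tested had a lower mean in CUMS, with a median log2 fold change of -0.14, although Cox5b, at -0.0021, lay above 0 with RLE scaling, without the filter on low counts and in DESeq2. The median was -0.23 without CUMS replicate 1 and -0.09 without Control replicate 1. Cox7c, a small subunit, had 22.7, 20.5 and 17.5 CPM in CUMS and 23.3, 24.1 and 24.2 CPM in Control. The groups did not overlap, and the log2 fold change was -0.24 ± 0.09 SE (edgeR adjusted p = 0.21). Ndufa4, at -0.24, and Cox5a, at -0.14, also had groups without overlap. Among the other subunits described, Cox4i1 stood at -0.09 and Cox6a1 at -0.15.

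Several subunits of complex IV exist in ubiquitous and tissue-restricted forms, and the transcripts here were almost all of the ubiquitous ones. The mean level over the 6 libraries, in CPM per kilobase, was 62.3 for Cox6a1 and 0.11 for the muscle form Cox6a2. It was 127 for Cox6b1 and 0.605 for the testis form Cox6b2, and 40 for Cox7a2 and 0.395 for the muscle form Cox7a1. The lung form Cox4i2 had 5 estimated counts in all, against 52011 for Cox4i1. The other rows left out, Cox8b, Cox8c, Cox7b2 and Ndufa4l2 of complex IV and Ndufa11b of complex I, were listed at 0 in every library, which at this depth allows up to 12 estimated counts in each, if 4 estimated counts stand for 1 read pair. This limit covers counting error only. The lowest log2 fold change of the complex, -1.07 for Cox6b2, had an SE of 0.85 and rests on 128 estimated counts over all libraries.

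Cox7a2l encodes a factor that ties complexes III and IV into supercomplexes. It was the only one of the 102 genes that was higher in CUMS without overlap, with 65.5, 63.8 and 62.1 CPM in CUMS and 61.2, 61.4 and 57.8 CPM in Control. Among all genes tested, 11.5% were higher without overlap. Its log2 fold change was 0.09 ± 0.05 SE, and it did not pass edgeR's test (adjusted p = 0.45). In the other direction, 15 of the 102 genes (14.7%) were lower in CUMS without overlap, compared with 11.5% of all genes tested, a share near the background.

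Complex V, the ATP synthase, had 17 nuclear genes, of which 15 had a lower mean in CUMS, with a median log2 fold change of -0.13. The median was -0.21 without CUMS replicate 1 and -0.08 without CUMS replicate 2. Atp5h had 56.7, 45.1 and 47.5 CPM in CUMS and 62.6, 58.8 and 55.9 CPM in Control. CUMS replicate 1 lay above the lowest Control library, and the other 2 CUMS libraries lay well below all of them. The log2 fold change was -0.25 ± 0.08 SE (edgeR adjusted p = 0.13), and -0.35 without CUMS replicate 1 (edgeR adjusted p = 0.017). With any other single library left out, edgeR's test did not call Atp5h.

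Atp5b encodes the catalytic beta subunit. It had 201, 186 and 193 CPM in CUMS and 218, 208 and 211 CPM in Control, with no overlap, and a log2 fold change of -0.13 ± 0.04 SE (edgeR adjusted p = 0.14). Atp5j, which encodes coupling factor 6 in the stalk, had 36.1, 31.2 and 32 CPM in CUMS and 39.5, 37.8 and 36.2 CPM in Control. These groups touched without overlapping, at a log2 fold change of -0.19 ± 0.07 SE (edgeR adjusted p = 0.18). The alpha subunit gene Atp5a1 averaged 118 ± 3.27 CPM in CUMS and 124 ± 1.43 CPM in Control, and the gamma subunit gene Atp5c1 averaged 61.3 ± 2.12 CPM in CUMS and 63.4 ± 4.37 CPM in Control (SD, n = 3 each). Atp5pb, subunit b of the outer stalk, had 113, 95.0 and 94.3 CPM in CUMS and 113, 108 and 107 CPM in Control, and CUMS replicate 1 matched the highest Control library. The ends of the range were Atp5g1, 1 of 3 genes for the membrane ring subunit, at -0.47 ± 0.32 SE, and Atp5d, the delta subunit, at 0.05 ± 0.08 SE.

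**Figure D2:**
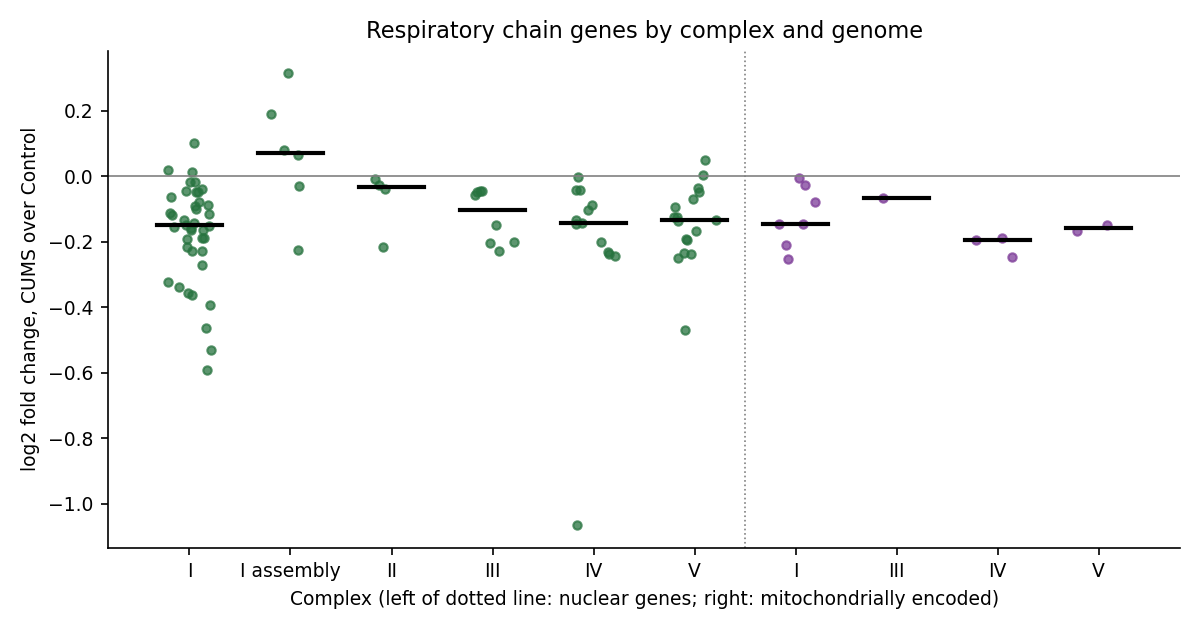
Log2 fold change of CUMS over Control for each gene tested, grouped by complex, with nuclear genes left and mitochondrially encoded genes right of the dotted line; each point is 1 gene, bars mark medians, and Cox7a2l is not drawn. Most points lie below 0 in every complex, with medians from -0.15 to -0.03 for the nuclear subunits, and the assembly factors have a median of 0.07, which lies below 0 without CUMS replicate 1 or 3 or Control replicate 2.

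The 13 mitochondrially encoded genes, which encode core subunits of complexes I, III, IV and V, all had a lower mean in CUMS, although ND1, at a log2 fold change of -0.0047, lay above 0 with RLE scaling, without the filter and in DESeq2. Of these genes, 5 (ND6, ND4, COX3, COX1 and ATP6), or 38.5%, had an unadjusted p below 0.05 in edgeR's test. Among all genes tested, 8.46% were lower in CUMS at that threshold. The 13 genes were read in the same libraries and are not independent replicates. Their rows carry identifiers of assembled transcripts. COX1 (chrM:5328-6872, plus strand, GRCm38), the catalytic subunit of complex IV, had 804, 708 and 713 CPM in CUMS and 869, 846 and 822 CPM in Control. All 3 CUMS libraries lay below all Control libraries, with CUMS replicate 1 nearest to them. The log2 fold change was -0.19 ± 0.05 SE, and its adjusted p of 0.059 in edgeR's test was the smallest of all 102 genes. When each library was left out in turn, its adjusted p in edgeR ran from 0.0054 (without CUMS replicate 1) to 0.26. COX1 also passed in DESeq2 (-0.18, adjusted p = 0.0038), in limma voom (adjusted p = 0.021) and in edgeR with the values divided by 4 (adjusted p = 0.032). Both of these last tests called COX1 alone among the respiratory chain genes, where limma voom called 2.52% and edgeR with divided values 3.38% of the genes tested as lower in CUMS.

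COX3, a core subunit beside COX1, had 118, 89.4 and 101 CPM in CUMS and 127, 126 and 113 CPM in Control. CUMS replicate 1 lay within the Control range, and the log2 fold change was -0.25 ± 0.09 SE (edgeR adjusted p = 0.15). COX2, which takes electrons from cytochrome c, had 152, 112 and 127 CPM in CUMS and 158, 149 and 140 CPM in Control, at -0.19 ± 0.09 SE (edgeR adjusted p = 0.31). DESeq2 called COX1, COX3 and Atp5h, 3 of the 97 respiratory chain genes to which it gave an adjusted p, all lower in CUMS, where it called 4.15% of all genes with an adjusted p as lower. Without CUMS replicate 1, edgeR's log2 fold changes were -0.25 for COX1, -0.32 for COX2 and -0.36 for COX3 (adjusted p = 0.0054, 0.031 and 0.021). With any other library left out edgeR called none of these 3 genes, at adjusted p up to 0.26, 0.70 and 0.42.

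The mitochondrially encoded subunits of complex I differed among themselves. ND6 had 15.3, 14.9 and 13.1 CPM in CUMS and 15.9, 16.3 and 17.9 CPM in Control, without overlap, at -0.21 ± 0.10 SE. ND4 stood at -0.15 ± 0.06 SE, with 103, 87.5 and 94.1 CPM in CUMS and 111, 103 and 100 CPM in Control. At the other end, ND1 averaged 44.3 ± 4.43 CPM in CUMS and 44.4 ± 1.11 CPM in Control, and ND5 averaged 69.1 ± 3.88 CPM in CUMS and 70.4 ± 4.91 CPM in Control (SD, n = 3 each), so for both the difference was far below the spread. ND2 lay at -0.08, ND4L at -0.15 and ND3 at -0.25 ± 0.20 SE. CYTB, the mitochondrially encoded core of complex III, lay at -0.07 ± 0.07 SE. ATP6, the proton channel of the ATP synthase, lay at -0.17 ± 0.07 SE, and its neighbour ATP8 at -0.15 ± 0.08 SE.

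Some of these genes share bases, so reads at the overlap cannot be given to one of them. ATP8 (chrM:7766-7969, plus strand, GRCm38) is shown because its last 43 bases, in capitals, are also the first bases of ATP6. ND4L and ND4 share 7 bases. ND5 and ND6 lie on opposite strands and overlap at their ends (ND5 ends at 13565, and ND6 spans 13552 to 14070), and the sources used here do not say whether the libraries kept strand.
ATP8: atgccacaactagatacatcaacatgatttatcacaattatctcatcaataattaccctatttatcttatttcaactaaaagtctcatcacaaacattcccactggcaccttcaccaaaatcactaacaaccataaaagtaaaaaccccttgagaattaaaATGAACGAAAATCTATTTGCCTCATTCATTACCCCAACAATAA

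**Figure D3:**
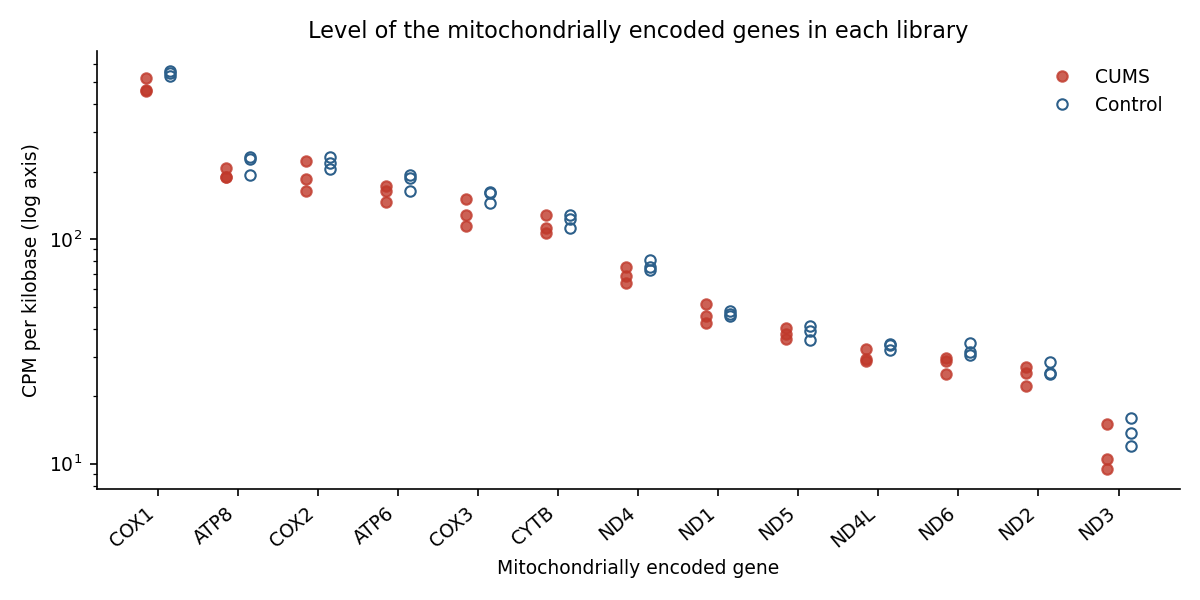
CPM per kilobase of the 13 mitochondrially encoded genes in each library on a log axis, with CUMS as filled points left of Control as open points, in order of mean level. COX1 is highest at 514 CPM per kilobase and ND3 lowest at 12.8, and for most genes the CUMS and Control points overlap.

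Per length, levels differed far more between the genes than between the groups. The mean over the 6 libraries, in CPM per kilobase, ran from 514 for COX1 through 206 for ATP8, 204 for COX2, 171 for ATP6, 143 for COX3 and 119 for CYTB to 72.5 for ND4 and 12.8 for ND3. The place of ATP8 in this order is uncertain, since it was divided by a length of 204 nt, of which 43 bases are shared with ATP6. The highest nuclear genes, each at a level per kilobase of the shortest coding transcript, were Atp5l with 144, Cox6b1 with 127, Cox4i1 with 124, Cox8a with 114, Atp5h with 112 and Atp5b with 106. The median level per kilobase over the nuclear subunits was 13.2 for complex I, 26.5 for complex II, 27.1 for complex III, 43.4 for complex IV and 49.0 for complex V. These medians do not correct for the number of copies of a subunit in its complex.

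The balance of the genomes was described by sums. The mitochondrially encoded genes took 0.163%, 0.143% and 0.149% of all estimated counts in CUMS replicates 1 to 3, and 0.175%, 0.172% and 0.162% in Control replicates 1 to 3. The nuclear subunits took 0.221%, 0.197% and 0.201% in CUMS, and 0.231%, 0.220% and 0.215% in Control. For both sums CUMS replicate 1 lay within the Control range. The ratio of the mitochondrially encoded to the nuclear sum was 0.738, 0.727 and 0.744 in CUMS and 0.760, 0.780 and 0.755 in Control. This ratio did not overlap between the groups, CUMS replicate 1 included. Of all single genes tested, 11.5% were lower in CUMS without overlap, a share that was not taken over ratios of sums. The median log2 fold changes were close, at -0.15 for the mitochondrially encoded genes and -0.14 for the nuclear subunits. COX1 made up 48.9% ± 1.03 of the mitochondrially encoded counts in CUMS and 49.7% ± 0.83 in Control (SD, n = 3 each), and therefore weighs most in these sums. COX1 was itself lower in CUMS without overlap, as were only 2 of the 13 mitochondrially encoded genes (COX1 and ND6). The separation of the ratio therefore need not hold for the genes other than COX1. No test was made of sums over the genes.

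**Figure D4:**
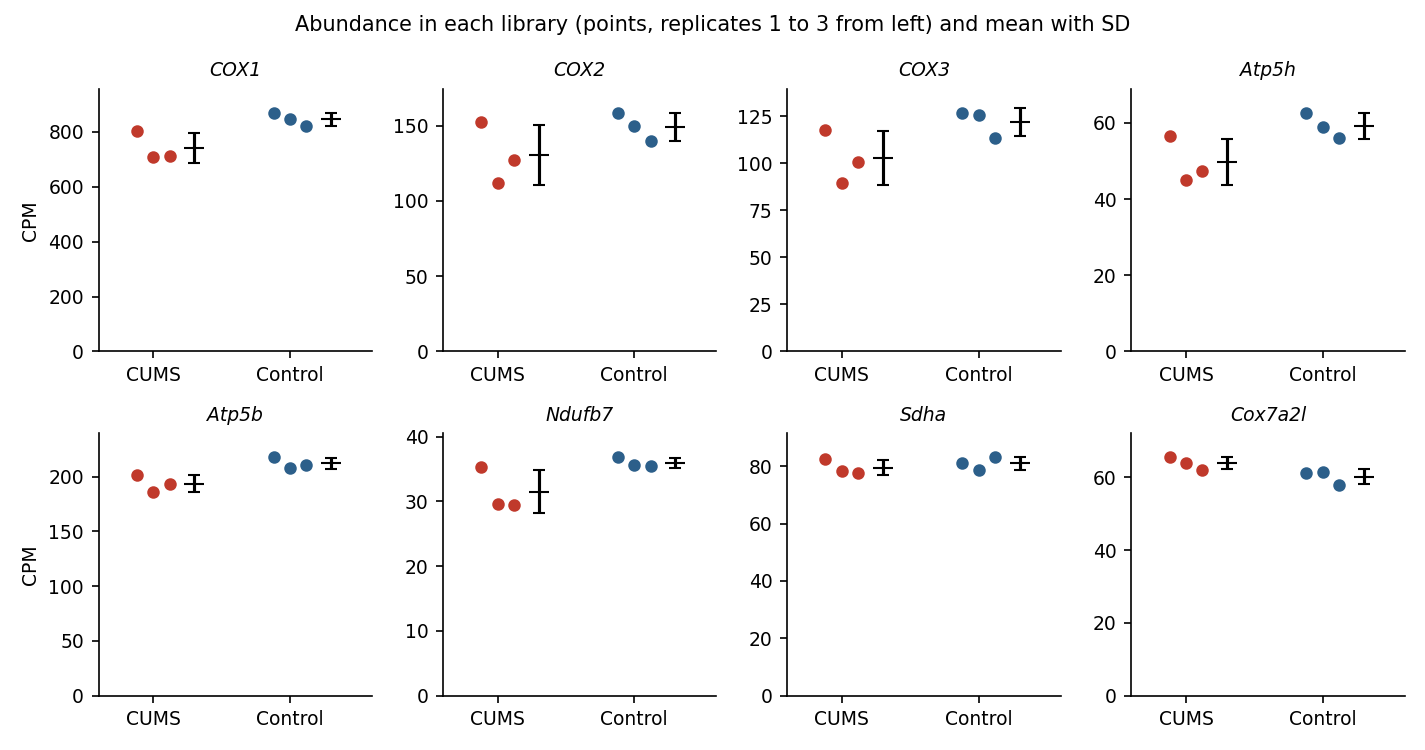
CPM in each library for 8 genes, CUMS left and Control right in each panel, with points for replicates 1 to 3 from left to right and a bar for the mean with SD (n = 3). In COX2, COX3, Atp5h and Ndufb7 the first CUMS point stands near the Control points and the other CUMS points lie below, whereas Sdha is level and Cox7a2l is slightly higher in CUMS.

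The genes around the chain were counted from lists by function. Among electron carriers and other dehydrogenases that feed ubiquinone, none of 8 passed edgeR's test, nor that of DESeq2 or limma voom, and 1 had an unadjusted p below 0.05 in edgeR. Cytochrome c (Cycs) averaged 17.6 CPM in CUMS and 20.1 CPM in Control, and Cyc1 of complex III averaged 15.2 CPM in CUMS and 16.1 CPM in Control. None of 31 assembly factors of complexes II to V passed any of these 3 tests (2 at an unadjusted p below 0.05 in edgeR, and 1 called without CUMS replicate 1), nor any of 18 genes of the tricarboxylic acid cycle (4 at that threshold), whose median log2 fold change was -0.02 (-0.05 without CUMS replicate 1). Of all genes tested, 16.9% had an unadjusted p below 0.05 in either direction. Of 77 mitochondrial ribosomal protein genes, 1 fell, Mrpl58, a release factor of stalled ribosomes, at -0.68 ± 0.17 SE (edgeR adjusted p = 0.044), with 2.30, 2.53 and 2.74 CPM in CUMS and 4.09, 4.33 and 3.69 CPM in Control. Of 28 factors of mitochondrial DNA and RNA, 1 rose, Mtpap, the mitochondrial poly(A) polymerase, at 0.30 ± 0.08 SE (edgeR adjusted p = 0.049), with 23.7, 23.6 and 22 CPM in CUMS and 19.3, 17.9 and 19.3 CPM in Control. Of 21 protein import genes, 1 fell, Tomm6, a small subunit of the outer membrane import pore, at -0.29 ± 0.07 SE (edgeR adjusted p = 0.049), with 29.3, 25.3 and 27.5 CPM in CUMS and 34.3, 34.5 and 31.6 CPM in Control. In these 3 genes CUMS replicate 1 lay with its own group, free of overlap. Leaving out any single library took the adjusted p of Mrpl58 in edgeR to between 0.080 and 0.16 and that of Mtpap to between 0.090 and 0.17. For Tomm6 it was 0.038 without CUMS replicate 1, which kept the call, and between 0.083 and 0.20 without any other library.

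The cytosolic ribosomal protein genes, also short and abundant, showed a like difference among the CUMS libraries. Their median deviation from the mean of the 6 libraries was 0.16, -0.08 and -0.10 on the log2 scale in CUMS replicates 1 to 3, and 0.05, 0.02 and -0.05 in Control replicates 1 to 3. None of 82 passed edgeR's test, 3 had an unadjusted p below 0.05, and DESeq2 called 1 (Rpl17) and limma voom 0. Their median log2 fold change was -0.01, and without CUMS replicate 1 it was -0.09, with 2 genes called lower in edgeR. The cell division list behaved otherwise. Of its 23 genes 13 fell, and its CPM sum was 405, 413 and 424 in CUMS and 564, 586 and 604 in Control, so that CUMS replicate 1 was the lowest library of all.

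Within the respiratory chain the difference was larger for shorter transcripts. For nuclear subunits of at least 10 CPM, the median log2 fold change was -0.22 for the 12 genes of up to 500 nt (shortest annotated coding transcript), -0.14 for 24 longer genes of up to 1000 nt, -0.07 for 14 above that and up to 2000 nt and -0.05 for 4 above that and up to 4000 nt. Other genes of at least 10 CPM had medians of -0.02, -0.02, -0.01 and 0.01 in the same ranges. Without CUMS replicate 1 the medians of the subunits were -0.32, -0.21, -0.14 and -0.07, and those of the other genes -0.09, -0.05, -0.02 and 0.02. The nuclear subunits thus lay below the other genes in each range. Spearman's rho between length and log2 fold change was 0.45 across the 54 subunits and 0.15 across 6185 other genes. These are descriptions across genes that share libraries and are not independent replicates. The part of transcript length in the lower values was not tested.

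**Figure D5:**
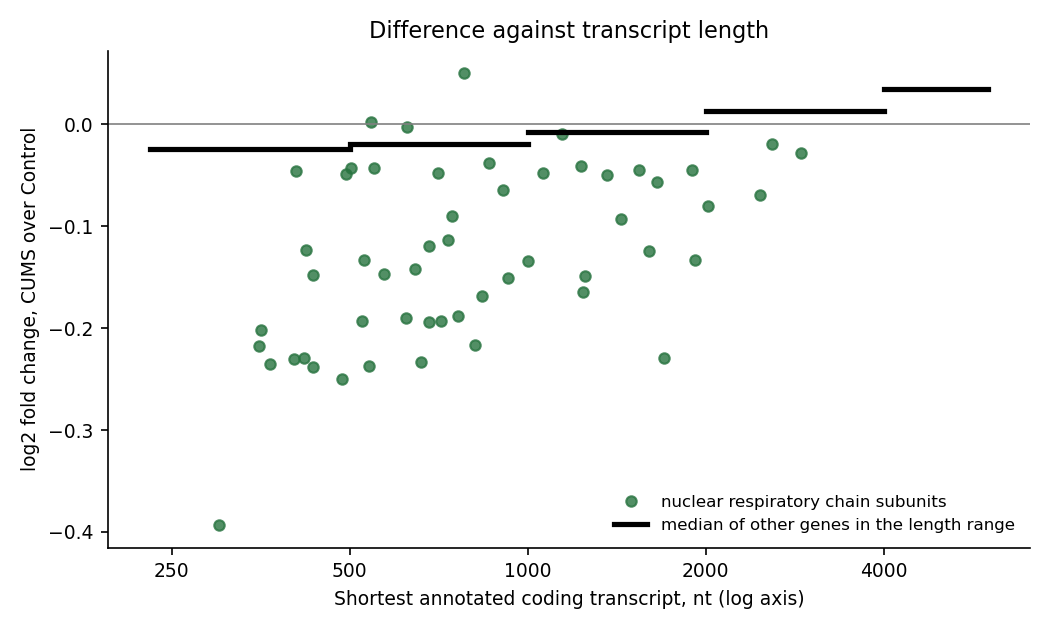
Log2 fold change of CUMS over Control against the length of the shortest annotated coding transcript (log axis, nt) for 54 nuclear respiratory chain subunits of at least 10 CPM (points), with the median of other genes in each length range as bars. The subunits of up to 500 nt have a median of -0.22 and those above 2000 and up to 4000 nt one of -0.05 (-0.32 and -0.07 without CUMS replicate 1), and nearly all points lie below the bars.

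The libraries held 78845457 to 109757558 estimated counts, or 19711364 to 27439390 read pairs if 4 estimated counts stand for 1 pair. Neutrophil markers were abundant: the CPM sum over 10 genes such as S100a8, S100a9 and Ly6g was 121448, 95238 and 100597 in CUMS and 125966, 118176 and 114769 in Control. Of these 10 genes, Camp and Ltf fell in edgeR's test (adjusted p = 0.046 and 0.044). Without CUMS replicate 1, 5 genes were called lower (S100a8, S100a9, Camp, Ngp and Ltf) and 1 higher (Csf3r), and without any other single library none was, with the adjusted p up to 0.21 for Camp and 0.26 for Ltf. Erythroid markers rose in 8 of 13 genes, with sums of 2536 to 3022 CPM in CUMS and 1316 to 1887 CPM in Control. Sums were 204 to 210 CPM in CUMS and 165 to 169 CPM in Control for 8 B cell markers (1 rose), and 70.4 to 75.9 CPM in CUMS and 85.4 to 87.3 CPM in Control for 6 plasma cell markers. Most of the B cell sum is Ighm, the marker that rose, with a mean of 175 CPM in CUMS and 141 CPM in Control. The other 7 B cell markers did not pass edgeR's test, although each had a higher mean in CUMS. Most of the plasma cell sum is Xbp1, the gene that fell, with a mean of 65.9 CPM in CUMS and 80.7 CPM in Control, whereas 4 of the 6 markers had a higher mean in CUMS and the median log2 fold change was 0.30. Sums were 676 to 761 CPM in CUMS and 705 to 751 CPM in Control for 7 monocyte markers (Csf1r and F13a1 rose, Csf1r losing its call when any library other than CUMS replicate 1 was left out), and 28.1 to 30.3 CPM in CUMS and 21.3 to 22.9 CPM in Control for 5 eosinophil markers (Prg2 and Epx rose, Epx losing its call without CUMS replicate 2 or 3 or Control replicate 3). T and NK cell markers summed to 4.08 to 5.70 CPM in CUMS and 4.02 to 5.90 CPM in Control, and none of the 3 tested passed. None of these marker genes was at 0 in all 6 libraries. Their part in the values of the respiratory chain genes was not tested.

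Some rows may share reads with near-identical copies. Ndufb4 has the copies Ndufb4b and Ndufb4c, and Ndufs6 the copy Ndufs6b, with Ndufb4c and Ndufs6b annotated as processed pseudogenes of a single exon. The row of the pseudogene Ndufa12-ps held 956 estimated counts, more than the 824 of Ndufa12 itself, and that of Cox5b-ps held 1677, or 10% of those of Cox5b. The values of these genes are therefore uncertain.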

How the data were processed

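Neutrophil RNA was measured in 3 CUMS and 3 Control libraries. Per the submitters' processing notes, the tools included HISAT2 2.1 and featureCounts 1.6.4, on mm10. The deposited values are whole numbers per gene, taken here as estimated counts without rounding, because 4, 8, 12 and 16 were more frequent than their neighbours, as if a read pair were worth about 4, and 1588 rows carry identifiers of assembled transcripts. The genes and lists were chosen with earlier results of these data known.

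The values entered edgeR 4.0.16 (R 4.3.3) with filterByExpr, TMM, the quasi-likelihood F test without covariates, and Benjamini-Hochberg adjustment at 0.05 over 15778 genes. SEs were derived from F. Deviations use log2 CPM with a prior count of 2. Coordinates and lengths are from GENCODE M21 on GRCm38, matched by symbol. Named genes were all mitochondrially encoded and complex II genes, core subunits, the extremes of each complex, the isoforms of complex IV and each gene with an unadjusted p below 0.05 in edgeR or a call in DESeq2, except that 1 core subunit is not reported here. COX2, Ndufa3, Atp5pb and Hcfc1 received fuller values after these were seen, and Ndufb2 and Ndufs6 were named then as well. Alternatives were RLE scaling, no filter, DESeq2 1.42.0, limma voom (limma 3.58.1), values divided by 4, a replicate block and leaving out each library. The test was checked on simulated counts, where it called 39% of changes of 1.3-fold and 79% of changes of 2-fold. Changes as small as the medians described here were not simulated, so the lack of calls does not show equality. No exact permutation test was made, since 3 against 3 libraries cannot reach p below 0.1.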

Additional observations from a re-analysis of the deposited data

How the results depend on the processing

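Over the 12 alternatives the median log2 fold change stayed negative for nuclear subunits, for mitochondrially encoded genes and for the nuclear subunits of complexes I to V. That of the complex I assembly factors ran from -0.0936 to 0.162 when each library was left out. Without CUMS replicate 1 the median was -0.10 for complex II and -0.21 for complex III, and leaving out each library in turn gave -0.098 to -0.016 and -0.206 to -0.0753. Respiratory chain genes called numbered 0 in edgeR, also with RLE scaling or without the filter on low counts, 3 in DESeq2, 1 in limma voom, 1 with values divided by 4, 2 with the replicate block (COX1 and Atp5h, where 2.73% of all genes were called lower), and 0 to 7 when each library was left out, with 7 only without CUMS replicate 1. Of all genes, 710 were called, 462 without the filter on low counts, 1146 in DESeq2, 931 with the replicate block, and 305 to 697 when each library was left out; the cause was not tested.

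Genes near 0 changed sign. Cox5b was at 0.0035 with RLE scaling, 0.0053 without the filter and 0.0059 in DESeq2, and ND1 at 0.00097, 0.0032 and 0.0034. When each library was left out, the log2 fold change ran from -0.119 to 0.0672 for Cox5b, -0.0832 to 0.0613 for ND1, -0.0779 to 0.0228 for ND5, -0.142 to 0.0682 for Sdhb, -0.146 to 0.0247 for Uqcrc2, -0.0511 to 0.0171 for Ndufs7, -0.00568 to 0.124 for Atp5d and -1.54 to 1.43 for Ndufaf2.

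Same-numbered CUMS and Control libraries did not deviate together (correlations of 0.0081, 0.0035 and -0.0264 over 15778 genes). With 3 libraries per group this cannot show whether the replicate numbers pair the libraries, and the sources used here do not say. Genes with few estimated counts, such as Ndufaf2 with 115 and Cox6b2 with 128 over 6 libraries, rest on few reads, all the more so if a read pair counts as about 4, which the sources used here do not state. Leaving out Ndufb4c and Ndufs6b, annotated as processed pseudogenes, was added after seeing the data, and gave medians of -0.14 for the nuclear subunits and -0.15 for complex I.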
